A study of Mus musculus with 8 samples.

Results

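*Fpr1*, *Fpr2*, *Ptafr*, *C5ar1* and *C3ar1*, 5 of the 24787 genes listed, encode receptors that let myeloid cells sense chemoattractants which are not chemokines. They were chosen by name with measured values of these tumors in view, namely more *Fpr1* in macrophages and less *Ptafr* in dendritic cells (DCs) after medium R848-BPDs than after free R848. Values of these 5 genes in that contrast, and in the contrast with saline that shares its medium R848-BPD tumors, are therefore given as a description with no test. Tests are given for their differences between cell classes, and between free R848 and saline, a comparison that shares the free R848 tumors with the contrast used for the choice. The class comparisons pool all 3 treatments, so they hold the medium R848-BPD tumors whose values led to the choice, and they are also given without them.

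MC38, a mouse colon carcinoma line, was grown as tumors, and single cells were taken 24 hours after saline (3 tumors), free R848 (3 tumors) or medium R848-BPDs (2 tumors). R848 (resiquimod) is a small-molecule agonist of Toll-like receptors, and an R848-BPD is a bottlebrush polymer prodrug that carries it on a cleavable linker, here the linker of medium release rate. The study's methods describe the MC38 model as cells placed under the skin of C57BL/6 mice, and list 8-week-old female C57BL/6J animals. They set the dose of both drugs for tumor imaging and therapy at the highest dose of free R848 that mice tolerated, while the dose given to these 8 mice is not on their labels. Each tumor was dissociated, its CD45+ cells were loaded in excess of its CD45- cells onto Seq-Well arrays, in which cells are captured with barcoded beads, and transcripts were counted as unique molecular identifiers (UMIs).

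Formyl peptide receptors bind peptides that start with formylmethionine, released by bacteria and by mitochondria of damaged cells, and FPR2 also binds lipid and protein ligands such as annexin A1 and serum amyloid A. PTAFR is the receptor of platelet-activating factor, a phospholipid mediator, and C5AR1 and C3AR1 bind C5a and C3a, the small fragments cut from complement proteins. All 5 can signal through inhibitory G proteins, and receptors of this group can call neutrophils, monocytes or macrophages to sites of injury or infection.

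*Fpr1* (chromosome 17, 17876471 to 17883940, minus strand) and *Fpr2* (chromosome 17, 17887824 to 17893952, plus strand) are neighbors that point away from each other, with starts 3884 bases apart in the GENCODE vM21 annotation of GRCm38. *Ptafr* lies on chromosome 4 (132564067 to 132582683, plus strand), *C5ar1* on chromosome 7 (16246743 to 16259540, minus strand) and *C3ar1* on chromosome 6 (122847138 to 122856161, minus strand). The 250 bases before the RefSeq start of the divergent pair are shown because these genes had the highest ratios of the 5 between medium R848-BPDs and free R848. They are written 5′ to 3′ on the strand of the gene (GRCm38.p6), with matches to the motifs named below in capitals.
Fpr1, chr17:17883940-17884189, minus strand: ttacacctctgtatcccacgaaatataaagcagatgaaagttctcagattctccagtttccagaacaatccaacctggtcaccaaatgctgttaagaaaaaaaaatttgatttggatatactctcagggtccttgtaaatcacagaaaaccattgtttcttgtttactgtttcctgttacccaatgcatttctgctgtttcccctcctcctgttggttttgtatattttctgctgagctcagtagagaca
Fpr2, chr17:17887574-17887823, plus strand: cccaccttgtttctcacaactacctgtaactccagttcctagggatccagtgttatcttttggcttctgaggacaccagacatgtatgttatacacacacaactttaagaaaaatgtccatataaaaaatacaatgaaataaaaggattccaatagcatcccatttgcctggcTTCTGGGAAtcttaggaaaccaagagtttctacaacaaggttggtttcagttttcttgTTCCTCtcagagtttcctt

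Letters of 6 motifs were searched on both strands of these windows in all 5 genes, which all had an entry in RefSeq, namely TGANTCA (AP-1), TTNNGCAA (C/EBP), TTCNNNGAA (GAS, bound by STAT factors), GAGGAA (PU.1 core), the ISRE bound by IRF factors and the NF-kB motif. The window of *Fpr1* held no match. That of *Fpr2* held a GAS match starting at position -77 from the start and a PU.1 core match, read on the other strand, at position -19. Among the windows of 32851 promoters, 7.02% held the GAS letters and 23.3% those of the PU.1 core. *Ptafr* had a PU.1 core match at position -242 and *C3ar1* an AP-1 match (6.75% of promoters) at position -22, while *C5ar1* had no match. A match is a run of letters, not a bound site.

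*Fpr1* and *Fpr2* are paralogs, and their annotated transcripts share an exact run of up to 50 bases, but the longest run shared by their last 500 bases, the part that 3′ counting mostly reads, was 14 bases. *Fpr3*, annotated on the same strand across *Fpr2*, had 5 UMIs over all barcodes, and the *Fpr-rs* genes had between 1 and 3 UMIs. Transcripts of *Fpr3* counted as *Fpr2* cannot be told apart.

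Of 10791 barcodes, 9886 passed the quality filters, and 9827 were kept after removal of 59 whose barcode sequence occurred in more than 1 library. Of the 23 such barcode sequences, 9 occurred in all 8 libraries, and their cells had a median of 1607 UMIs. Classes were gated per cell on marker genes that include none of the 5 receptors, and are written with the ending -like. They held 4112 macrophage-like, 1521 monocyte-like, 559 DC-like and 120 neutrophil-like cells, besides T-like, NK-like, MC38-like and smaller classes. Of the macrophage-like cells, 93.6% also fell in macrophage clusters drawn without the gate, against 46.5% of the monocyte-like cells in monocyte clusters, so the border between these classes depends on how they are drawn. Total UMIs ranged from 5867590 to 12422614 per tumor. Saline replicate 2 stood apart, with 943 macrophage-like cells, 67 monocyte-like cells, 19 DC-like cells and no neutrophil-like cell, and results that change without it are given both ways.

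Levels are given per 1000000 UMIs (CPM) of the summed cells of a class in a tumor, and classes of fewer than 10 cells in a tumor were left out. *Fpr1* was highest in neutrophil-like cells, at 382 ± 274 CPM (SD, n = 5 tumors), followed by monocyte-like (47.0 ± 66.1, n = 8) and macrophage-like cells (39.5 ± 53.2, n = 8). These last 2 overlapped in range, and their SDs exceed their means because the 2 medium R848-BPD tumors lay far above the others. DC-like cells held 10 UMIs of *Fpr1* over all tumors, with none in 5 of 8, and T-like and MC38-like cells averaged 0.531 and 0.676 CPM. *Fpr2* had the same order, with 357 ± 294 CPM in neutrophil-like, 99.7 ± 74.1 in monocyte-like, 64.5 ± 52.4 in macrophage-like and 7.65 ± 7.25 in DC-like cells.

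*Ptafr*, in contrast, was well detected in DC-like cells. It averaged 830 ± 289 CPM in neutrophil-like cells, 455 ± 171 in monocyte-like cells, 189 ± 46.6 in macrophage-like cells and 182 ± 88.5 in DC-like cells. The range of macrophage-like cells (116 to 230 CPM) lay within that of DC-like cells (55.0 to 292 CPM). T-like, NK-like and MC38-like cells had 26.0, 19.1 and 5.26 CPM. *C5ar1* averaged 260 ± 79.1 CPM in neutrophil-like, 198 ± 34.6 in macrophage-like, 148 ± 36.1 in monocyte-like and 23.02 ± 21.3 in DC-like cells. *C3ar1* was highest in macrophage-like cells (833 ± 187 CPM), then in monocyte-like (575 ± 207), neutrophil-like (203 ± 118) and DC-like cells (76.1 ± 36.6). Macrophage-like cells, the most numerous class, held 83.0% of all UMIs of *C3ar1* in kept cells, 79.1% of those of *C5ar1*, 70.7% of those of *Fpr1*, 68.0% of those of *Fpr2* and 51.0% of those of *Ptafr*.

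**Figure D1:**
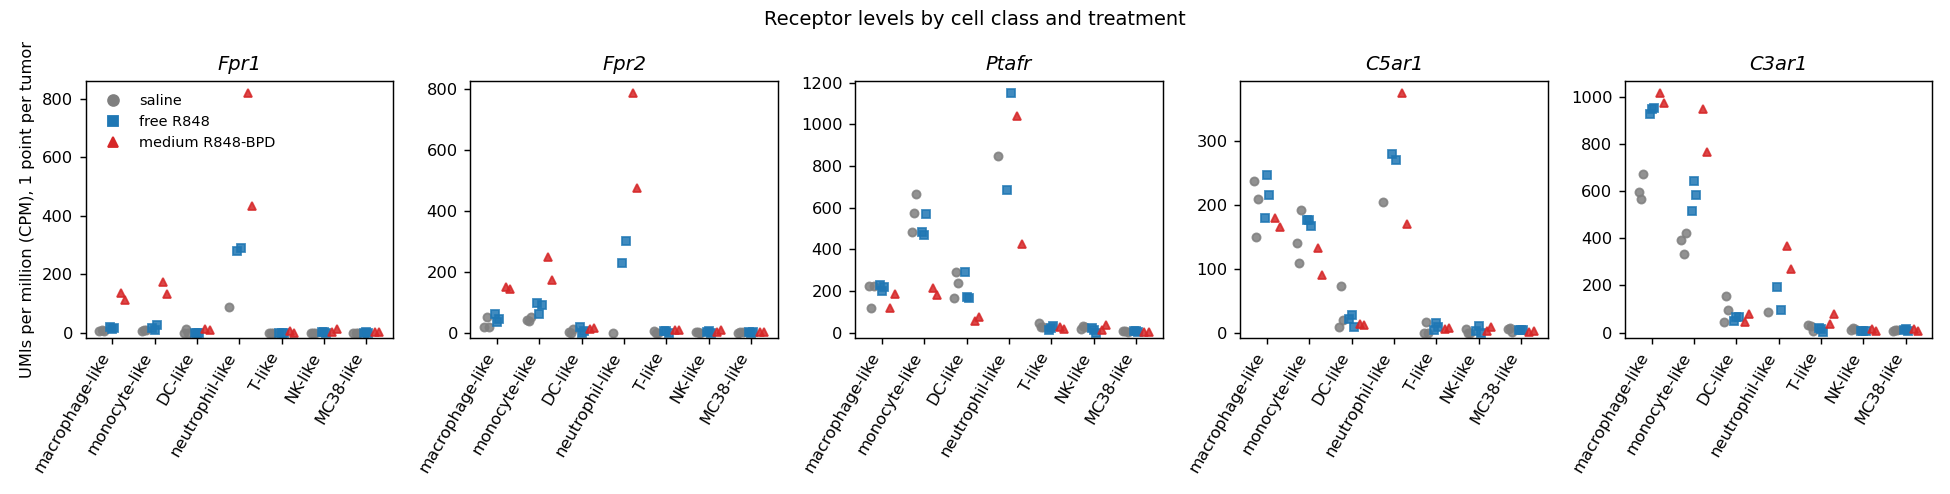
Level of each receptor per 1000000 UMIs (CPM, linear axes that differ between panels) by cell class, with 1 point per tumor and treatments by color and marker. *Fpr1* and *Fpr2* sit near 0 in DC-like, T-like, NK-like and MC38-like cells, and the medium R848-BPD points lie above all others in macrophage-like and monocyte-like cells.

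Classes were compared within tumors with edgeR's quasi-likelihood test on summed counts, the tumor being a block, and Benjamini-Hochberg adjustment over all genes tested. Between macrophage-like and DC-like cells, 42.6% of all genes tested were called, and *Fpr2*, *C5ar1* and *C3ar1* were higher in macrophage-like cells, each in 8 of 8 tumors. The log2 difference was 2.94 (SE 0.35, adjusted p = 4.09e-06) for *Fpr2*, 3.37 (SE 0.27, adjusted p = 4.3e-08) for *C5ar1* and 3.45 (SE 0.22, adjusted p = 3.45e-09) for *C3ar1*. *Ptafr* differed by 0.07 (SE 0.21, adjusted p = 0.821), macrophage-like cells being higher in 5 of 8 tumors. In the saline and free R848 tumors alone, a comparison added after seeing the data, *Fpr2*, *C5ar1* and *C3ar1* still passed (2.47, 3.34 and 3.33), and the difference of *Ptafr* was -0.15 (adjusted p = 0.583). *Fpr1* passed the filter on low counts only with the medium R848-BPD tumors, so its levels of 39.5 CPM in macrophage-like and 3.77 CPM in DC-like cells, the former higher in 7 of 8 tumors, are a description with no test.

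Monocyte-like cells differed from macrophage-like cells mainly in *Ptafr* and *Fpr2*. Here 45.8% of genes were called. *Ptafr* was lower in macrophage-like cells by a log2 value of -1.41 (SE 0.17, adjusted p = 6e-06) and *Fpr2* by -0.93 (SE 0.15, adjusted p = 0.000121), each in 7 of 8 tumors, and *C3ar1* was higher by 0.38 (SE 0.08, adjusted p = 0.00154) in 8 of 8. *Fpr1* (-0.37, SE 0.15, adjusted p = 0.0522) and *C5ar1* (0.23, SE 0.10, adjusted p = 0.0713) did not pass, although *C5ar1* did in 4 of 13 alternatives (adjusted p over all 13 of 0.0079 to 0.233) and *Fpr1* in 2 of 13, in opposite directions. *Fpr1* was lower in macrophage-like cells without free R848 replicate 2, by a log2 value of -0.43 (adjusted p = 0.0346). With classes taken from clusters, *Fpr1* was instead higher in macrophage-like cells, by 0.74 (adjusted p = 0.0437), and *Fpr2* no longer passed (-0.38, adjusted p = 0.301), the adjusted p over the 13 alternatives being 0.0346 to 0.343 and 1.33e-12 to 0.301 respectively. Without the medium R848-BPD tumors *Fpr2*, *Ptafr* and *C3ar1* still passed (-1.07, -1.64 and 0.47) and *Fpr1* and *C5ar1* did not (adjusted p = 0.343 and 0.233).

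Neutrophil-like cells could be compared in 5 tumors, with 10 to 35 cells each, and 13.4% of genes were called. *Fpr1* was lower in macrophage-like cells by a log2 value of -3.46 (SE 0.34, adjusted p = 6.67e-22) in 5 of 5 tumors, *Fpr2* by -2.42 (SE 0.33, adjusted p = 1.31e-11) in 4 of 5 and *Ptafr* by -2.25 (SE 0.30, adjusted p = 9.19e-12) in 5 of 5. *C3ar1* was higher in macrophage-like cells by 2.09 (SE 0.32, adjusted p = 2.9e-09) in 5 of 5, and *C5ar1* differed by -0.52 (SE 0.30, adjusted p = 0.281), passing in 1 of 13 alternatives, with classes from clusters (-0.97, adjusted p = 9.69e-05, range up to 0.765). *Fpr1*, *Fpr2*, *Ptafr* and *C3ar1* also passed in the same direction in the 3 tumors left without the prodrug, with *Fpr1* at -4.46. The small class was not pure by its markers, since macrophage markers summed to 1093 to 6638 CPM in it, and *Cxcr2*, a defining neutrophil gene, was at 0 in its saline tumor. Their part in these values was not tested.

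The effect of the free drug was tested next. *Fpr1*, *Fpr2* and *C3ar1* had higher mean levels after free R848 than after saline in macrophage-like and monocyte-like cells. However, none of the 5 receptors passed the edgeR test in macrophage-like, monocyte-like or DC-like cells. There 2, 3 and 0 of them had an unadjusted p under 0.05. Over all genes tested, 1337 of 10421, 965 of 7999 and 1065 of 5393 did. In macrophage-like cells *C3ar1* measured 929.6, 951 and 954 CPM in the free R848 tumors against 597, 565 and 672 CPM in the saline tumors, and the groups did not overlap. Its log2 difference was 0.65 (SE 0.13), with an unadjusted p of 0.000638 and an adjusted p = 0.154 in edgeR, while DESeq2 gave an adjusted p = 0.00121 (range over 18 alternatives 0.00121 to 0.5). *Fpr1* measured 18.2, 13.1 and 13.85 CPM, from 60, 50 and 27 UMIs, against 5.85, 10.3 and 4.75 CPM after saline, from 17, 71 and 9 UMIs.

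The log2 difference of *Fpr1* was 1.00 (SE 0.25, unadjusted p = 0.00301, edgeR adjusted p = 0.195, DESeq2 adjusted p = 0.0748). *Fpr2* measured 60.4, 34.4 and 43.6 CPM after free R848 and 17.2, 51.3 and 17.4 CPM after saline, a log2 difference of 0.62 (SE 0.37, edgeR adjusted p = 0.532). The high saline value is that of replicate 2. Without this tumor the log2 differences of *Fpr1* and *Fpr2* were 1.47 (adjusted p = 0.0345) and 1.41 (adjusted p = 0.0353), and both passed, with ranges over 18 alternatives of 0.000768 to 0.507 and 0.0138 to 0.793. *Ptafr* (0.21, SE 0.27) and *C5ar1* (0.13, SE 0.20) moved by less than their standard errors, and all 5 receptors had passed the filter on low counts. In this comparison 0.0096% of genes tested were called, that is 1 gene, *Lcn2*, with 1337 genes at an unadjusted p under 0.05 and 114 calls by DESeq2.

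The same contrast called 0.238% of genes in monocyte-like cells. There the receptors gave log2 differences of 1.31 (SE 0.44) for *Fpr1*, 0.85 (SE 0.24) for *Fpr2* and 0.51 (SE 0.17) for *C3ar1*, with edgeR adjusted p-values of 0.238, 0.168 and 0.226 and unadjusted ones of 0.00927, 0.00341 and 0.00812. *Ptafr* (-0.25, SE 0.17) and *C5ar1* (0.11, SE 0.21) also did not pass. In DC-like cells, where 4.67% of genes were called, only *Ptafr* and *C3ar1* passed the filter on low counts, and neither passed the test (-0.10, SE 0.27 and -0.42, SE 0.41, edgeR adjusted p = 0.884 and 0.631).

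After medium R848-BPDs the formyl peptide receptors stood far above the other treatments in the mononuclear phagocytes. The makeup of these classes also differed, as the study reports more *Cd38*+*Saa3*+ and fewer *Spp1*+ macrophages than after free R848. It likewise reports more *Cd38*+*Saa3*+ and fewer *Ly6c*-high monocytes. The part of this shift in the receptor levels was not tested. *Fpr1* measured 137 and 113 CPM in macrophage-like cells, from 700 and 278 UMIs, which is 8.28 times its mean of 15.1 ± 2.75 CPM (SD, n = 3) after free R848. Both tumors lay above every free R848 and saline tumor. In monocyte-like cells it measured 174 and 130.5 CPM against 16.1, 9.83 and 24.7 CPM after free R848 and 4.49, 9.08 and 8.13 CPM after saline, a ratio of mean levels of 9.01 between the prodrug and the free drug. Fitted log2 differences were 3.11 (SE 0.23) and 3.19 (SE 0.31), and over 18 alternatives that of macrophage-like cells lay between 3.003 and 3.25.

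*Fpr2* differed less in proportion. It measured 149 and 143 CPM in macrophage-like cells (762 and 352 UMIs), 3.16 times the mean after free R848, and 248 and 171 CPM in monocyte-like cells, 2.52 times the mean of 83.3 ± 19.2 CPM (SD, n = 3) after free R848. Neutrophil-like cells held 819 and 432 CPM of *Fpr1* after medium R848-BPDs (21 and 29 cells) and 280.2 and 290.1 CPM after free R848 (13 and 35 cells), with 87.8 CPM, from 3 UMIs, in the only saline tumor that reached 10 cells. In the same cells *Fpr2* measured 785 and 475 CPM after the prodrug and 228 and 299.7 CPM after the free drug. DC-like cells showed no such level, with 7 and 2 UMIs of *Fpr1* in the medium R848-BPD tumors (11.7 and 8.06 CPM) and none after free R848, while NK-like cells, which should lack the gene, had 2.73 and 13.6 CPM (5 and 3 UMIs) in the medium R848-BPD tumors.

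Neutrophils carry the most *Fpr1*, and so their markers were read in the macrophage-like cells. The 7 neutrophil markers were all detected there, with summed levels of 80.4 to 129 CPM after medium R848-BPDs, 62.5 to 163 after free R848 and 25.1 to 34.8 after saline, against 14610 to 20080 CPM in the neutrophil-like cells of the medium R848-BPD tumors. The defining gene *Cxcr2* stayed at 0.586 to 0.812 CPM in macrophage-like cells after medium R848-BPDs, against 389.6 to 879 CPM in neutrophil-like cells of the same tumors. *S100a8* encodes a calcium-binding protein abundant in neutrophils and also found in monocytes. It measured 21.9 to 43.5 CPM after the prodrug, 3.64 to 25.6 after the free drug and 0.291 to 2.11 after saline. A second such gene, *S100a9*, measured 7.22 to 33.7, 9.71 to 72.8 and 0.344 to 3.69 CPM in the same order. In monocyte-like cells the summed level was 189 to 234 CPM after the prodrug and 92.2 to 208 after the free drug, with *Cxcr2* at 0 after the prodrug. There *S100a8* measured 84.4 to 110.4 against 6.15 to 33.7 CPM, and *S100a9* 30.7 to 45.75 against 0 to 79.8 CPM. The part of neutrophil transcripts in the receptor values was not tested.

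*Ptafr* went the other way in DC-like and monocyte-like cells. In DC-like cells it measured 55.0 and 76.6 CPM, from 33 and 19 UMIs, after medium R848-BPDs, against 289, 169 and 164 CPM after free R848 and 167, 292 and 239.7 CPM after saline. Both prodrug tumors lay below all 6 others, and their mean was 3.15 times lower than after free R848, a fitted log2 difference of -1.67 (SE 0.34, range over 18 alternatives -1.90 to -1.37). The makeup of the DC-like cells differed between treatments, since cells gated on the mature markers *Ccr7*, *Fscn1*, *Ccl22* and *Cacnb3* were 90.4% and 94.7% of them after medium R848-BPDs, 70.4% to 85.7% after free R848 and 31.4% to 42.1% after saline. Within these mature DC-like cells alone, *Ptafr* measured 56.7 and 80.6 CPM after medium R848-BPDs and 328, 159.9 and 209 CPM after free R848, a mean 3.38 times lower. Summed macrophage markers in DC-like cells overlapped between the 2 treatments, at 556 to 1104 and 624 to 1779 CPM, and the DC marker *Cd209a* was at 0 after the prodrug.

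In monocyte-like cells *Ptafr* measured 216 and 182 CPM after the prodrug, against 484, 467 and 569 CPM after the free drug and 483, 572 and 666 CPM after saline, again with no overlap and a mean 2.55 times lower than after free R848. The 6 monocyte markers also summed to less in these cells after medium R848-BPDs (4514 to 4846 CPM) than after free R848 (8685 to 10870 CPM), and their part in the result was not tested. In macrophage-like cells *Ptafr* measured 116 and 184 CPM, against 229.7, 200.5 and 216 CPM after free R848 and 223, 119.6 and 226 CPM after saline. Both prodrug tumors lay below the free R848 tumors and overlapped the saline tumors. The fitted log2 difference from free R848, -0.46 (SE 0.31), was -0.12 without medium R848-BPD replicate 1 and -0.87 without replicate 2. Neutrophil-like cells overlapped between treatments, at 1041 and 425 CPM after the prodrug and 683 and 1151 CPM after the free drug.

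The complement receptors differed less between prodrug and free drug in macrophage-like cells. *C5ar1* measured 179 and 165 CPM in macrophage-like cells after medium R848-BPDs, against 180.0, 246 and 215 CPM after free R848 and 238, 151 and 209 CPM after saline, and the fitted log2 difference between the drugs was -0.25 (SE 0.22). Its monocyte-like levels were 133 and 89.6 CPM after the prodrug and 167 to 176 CPM after the free drug (-0.58, SE 0.25). *C3ar1* measured 1017 and 975 CPM in macrophage-like cells after the prodrug, 1.05 times the mean after free R848 (0.14, SE 0.14), and both drugs lay above the saline tumors. In monocyte-like cells it measured 333 to 421 CPM after saline, 515 to 642 CPM after free R848 and 949.7 and 765 CPM after medium R848-BPDs, 3 ranges that did not overlap.

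*C3ar1* in T-like cells measured 38.2 and 80.7 CPM after the prodrug, from 27 and 11 UMIs, against 4.199 to 20.2 CPM after free R848. Both lay above all 6 other tumors, at low counts, and RNA from macrophages in these cells cannot be told apart.

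**Figure D2:**
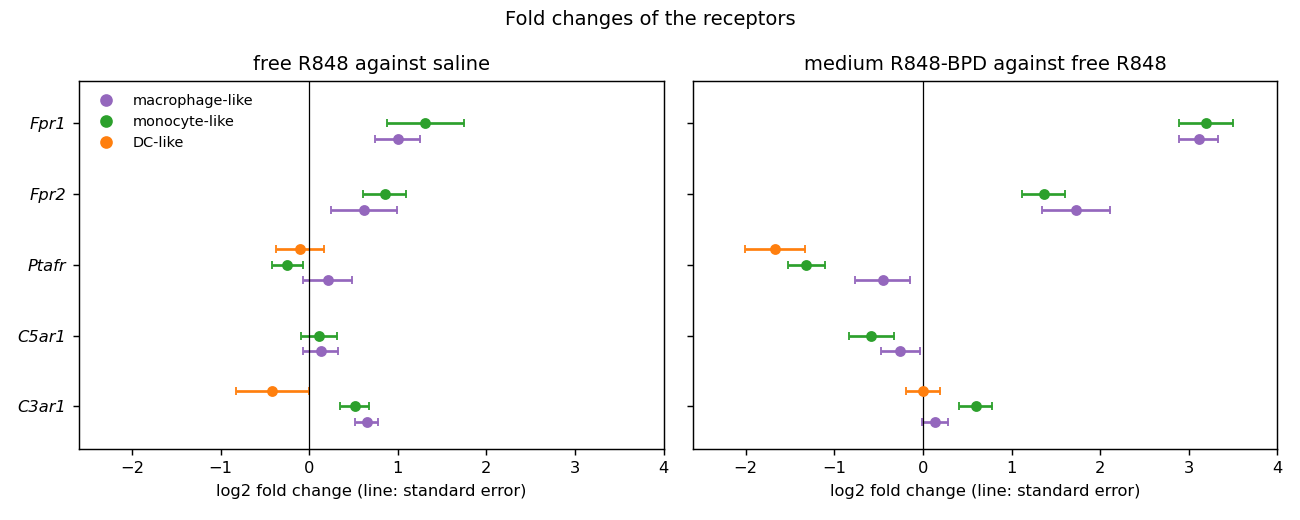
Fitted log2 fold changes of the receptors (edgeR, lines are standard errors) for free R848 against saline and for medium R848-BPD against free R848, in macrophage-like, monocyte-like and DC-like cells. In DC-like cells only *Ptafr* and *C3ar1* passed the filter on low counts; the right panel is a description, since the receptors were chosen on that contrast, and *Fpr1* lies near 3 in both phagocyte classes.

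Shares of cells with a UMI were read after each cell was thinned to 1000 UMIs, and 3 macrophage-like cells in all were left out as shallower (2 after saline, 1 after free R848). *Fpr1* was found in 11.2% ± 1.10 (SD, n = 2 tumors) of macrophage-like cells after medium R848-BPDs, 1.43% ± 0.129 (n = 3) after free R848 and 0.595% ± 0.415 (n = 3) after saline. The corresponding shares of *Fpr2* were 13.7% ± 2.64, 3.84% ± 1.16 and 2.65% ± 2.21. In NK-like cells of the medium R848-BPD tumors, which should lack both genes, the mean shares were 1.49% and 0.244%. In those of the free R848 tumors no UMI of either was left at this depth in 261 cells, so that a share of at most 1.15% is allowed, while without thinning 2 of them had *Fpr1* and 4 had *Fpr2*. Median depths were 4608 to 6745 UMIs per macrophage-like cell and 4813 to 7429 per NK-like cell after medium R848-BPDs, and 4698 to 6938 and 6071.5 to 8044 after free R848. Without thinning, *Fpr1* was found in 41.7% ± 8.04 of macrophage-like cells after the prodrug and 6.93% ± 1.86 after the free drug.

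*Ptafr* was found in 15.8% ± 0.182 of monocyte-like cells after medium R848-BPDs, against 34.8% ± 4.59 after free R848 and 38.1% ± 6.81 after saline. In DC-like cells its shares were 4.55% ± 1.00, 15.5% ± 5.32 and 19.9% ± 5.21 in the same order. *C3ar1* was found in 59.4% ± 0.874 of macrophage-like cells after the prodrug, 55.4% ± 1.72 after the free drug and 41.8% ± 2.30 after saline. *C5ar1* was found in 14.7% ± 0.0283, 19.7% ± 2.30 and 18.2% ± 3.70 of them. No direction between the drugs is read from these *C3ar1* and *C5ar1* shares, since their differences at 500, 1000 and 2000 UMIs per cell were 0.259, 4.02 and -1.94 percentage points for *C3ar1*, and 0.059 at 500 and -5.02 at 1000 UMIs for *C5ar1*. Without thinning *C5ar1* was found in 54.7% ± 8.32 of macrophage-like cells after the prodrug and 61.7% ± 6.90 after the free drug, and the tumors overlapped. *Fpr1* was found in none of 153 DC-like cells after free R848, thinned or not, so that at most 1.96% is allowed, and in 1 of 161 cells after medium R848-BPDs, or 6 without thinning. Such limits cover counting error only.

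**Figure D3:**
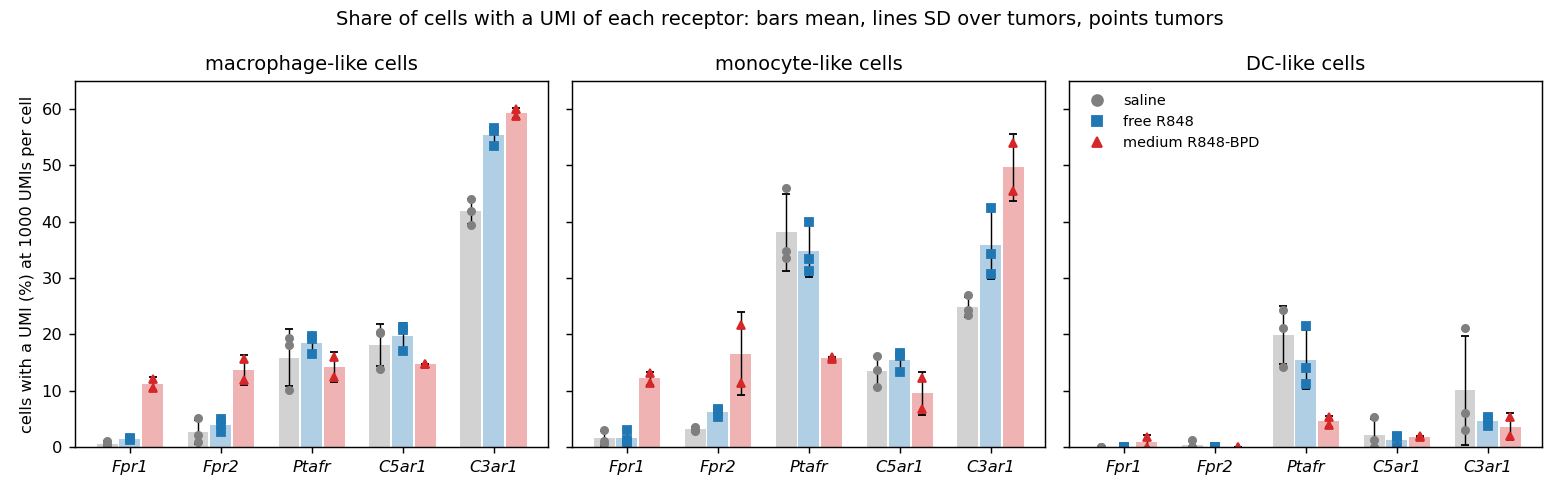
Percentage of macrophage-like, monocyte-like and DC-like cells with at least 1 UMI of each receptor after thinning to 1000 UMIs per cell. Bars are means and lines SDs over tumors, points are tumors, and the *Fpr1* bar of macrophage-like cells stands at 11.2% after medium R848-BPDs and at 1.43% after free R848.

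The receptors were also read in macrophage-like cells split by *Cd38* and *Saa3*, at the thinned depth. By this pair of genes the study names macrophages that it reports as enriched by R848-BPDs over free R848. Among 83 cells with a UMI of both genes in medium R848-BPD replicate 1, 16.9% (exact 95% interval 9.54% to 26.7%) had *Fpr1*, against 11.2% (8.65% to 14.3%) of 516 other macrophage-like cells. In replicate 2 the shares were 17.3% (10.6% to 26.0%) of 104 cells and 8.28% (5.53% to 11.8%) of 326. *Fpr2* was found in 13.3% and 12.5% of the double-positive cells and in 11.6% and 16.6% of the others. The shares of *C5ar1* were 18.1% and 18.3% against 14.15% and 13.5%, and those of *C3ar1* 61.45% and 67.3% against 58.3% and 57.7%. *Ptafr* was found in 10.8% and 22.1% against 12.6% and 14.1%. Exact 95% intervals of *C5ar1*, *C3ar1* and *Ptafr* overlapped in each tumor. Among cells with *Fpr1*, 18.1% and 17.8% also had *Fpr2*, against 11.01% and 15.3% of cells without it, intervals that overlapped in each tumor.

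The other genes of these pathways were read from lists of 16 further receptors, 25 ligands, precursors and enzymes, and 32 signalling genes. In macrophage-like cells, where 1.34% of all genes tested were called between medium R848-BPDs and free R848, *Saa3* and *Pla2g7* rose and none fell among 17 ligand and enzyme genes with UMIs in both groups. With *Saa1*, the only gene of this list that passed the filter although free R848 tumors held none of it, the median log2 difference of the 18 was 0.15, also with *Saa1* at its bound, beside -0.01 over all genes. *Saa3* and *Saa1* encode serum amyloid A proteins, a family whose members can act on formyl peptide receptor 2. *Saa3* rose from 78.3 ± 6.62 to 12250 ± 4368 CPM (log2 difference 7.36, SE 1.03, edgeR adjusted p = 0.0159, higher in 2 of 2 tumors). The study had already named the macrophages enriched by the prodrug in these tumors by *Saa3*, so this test is no independent support for its rise. *Saa1* had 133 UMIs in the prodrug tumors and none in the free R848 or saline tumors, a level at least 52.9-fold higher than the floor of 3 UMIs over the free R848 group. It entered the fit only through the prodrug tumors and is given as a description, with no test.

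*Pla2g7*, which encodes the secreted enzyme that breaks down platelet-activating factor, rose from 809 ± 62.7 to 2037 ± 216 CPM (log2 difference 1.40, SE 0.18, edgeR adjusted p = 0.012). Both calls were lost without medium R848-BPD replicate 2, without free R848 replicate 2 or without free R848 replicate 3 (edgeR adjusted p of 0.0644 to 0.103 for *Saa3* and 0.0801 to 0.101 for *Pla2g7*), and that of *Saa3* also without free R848 replicate 1 (0.0772), where that of *Pla2g7* held by little (0.04996). None of 7 further receptors tested passed in edgeR. *C5ar2*, a second C5a receptor, gave -1.35 (SE 0.34, adjusted p = 0.108), *Cysltr1*, a cysteinyl leukotriene receptor, -0.65 (SE 0.23, adjusted p = 0.221), *Cmklr1*, the chemerin receptor, 0.02 (SE 0.21) and *Ltb4r1*, a leukotriene B4 receptor, 0.44 (SE 0.44). *Anxa1*, which encodes the FPR ligand annexin A1, gave -0.68 (SE 0.46, adjusted p = 0.579), and *Lpcat2*, an enzyme that makes platelet-activating factor, -0.59 (SE 0.23, adjusted p = 0.28).

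None of 32 signalling genes passed in edgeR, and their median was 0.03. *Rgs2*, a regulator that switches off G proteins, gave -1.15 (SE 0.23, adjusted p = 0.0532). *Pik3r5*, a regulatory subunit of the phosphoinositide 3-kinase that these receptors activate, gave 0.99 (SE 0.24, adjusted p = 0.0953). *Dock2* gave -0.55 (SE 0.15, adjusted p = 0.132) and *Rac2*, a GTPase of the oxidase and of migration, 0.56 (SE 0.17, adjusted p = 0.174). In DC-like cells, where 0.389% of genes were called between the drugs, no list gene other than *Saa3* passed in edgeR. *Saa3* is given as a description there, since 2 of the 3 free R848 tumors held no UMI of it and its DC-like level came from 6 UMIs in the third. It measured 1040 and 1934 CPM in DC-like cells after medium R848-BPDs. T-like cells of the same tumors held 753 and 726 CPM of it, NK-like cells 143 and 555 CPM and MC38-like cells 274 and 243 CPM, against at most 10.9 CPM in these 3 classes after free R848. *Saa3* RNA from macrophages in DC-like cells cannot be told apart.

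Free R848 against saline gave no call on these lists in macrophage-like cells by edgeR, although *Pla2g7* had a log2 difference of 1.01 (SE 0.17, unadjusted p = 0.000184, adjusted p = 0.154). In DC-like cells, where 4.67% of all genes were called, 126 higher and 126 lower, 5 list genes fell and none rose, of 14 ligand and enzyme genes, 28 signalling genes and 2 receptors tested. They were *Cfp*, which encodes properdin of the alternative complement pathway (-1.67, SE 0.31, adjusted p = 0.0113), *Alox5ap*, a partner of the leukotriene-forming lipoxygenase (-1.16, SE 0.32, adjusted p = 0.0492), the Src family kinase *Lyn* (-1.01, SE 0.22, adjusted p = 0.0189) and the NADPH oxidase genes *Cybb* (-1.04, SE 0.21, adjusted p = 0.0155) and *Ncf4* (-1.25, SE 0.23, adjusted p = 0.0113). The share of mature cells moved with this comparison, as given above. The fit of mature DC-like cells alone held 2 saline tumors, since saline replicate 2 had 8 such cells. In it *Lyn*, *Alox5ap* and *Ncf4* did not pass (adjusted p = 0.661, 0.552 and 0.284), whereas *Cfp* and *Cybb* still did (0.00121 and 0.029). All 5 lost the call without saline replicate 1 (0.0932 to 0.342), and over 18 alternatives the calls of *Cfp*, *Alox5ap*, *Lyn*, *Cybb* and *Ncf4* held in 14, 6, 10, 12 and 14.

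**Figure D4:**
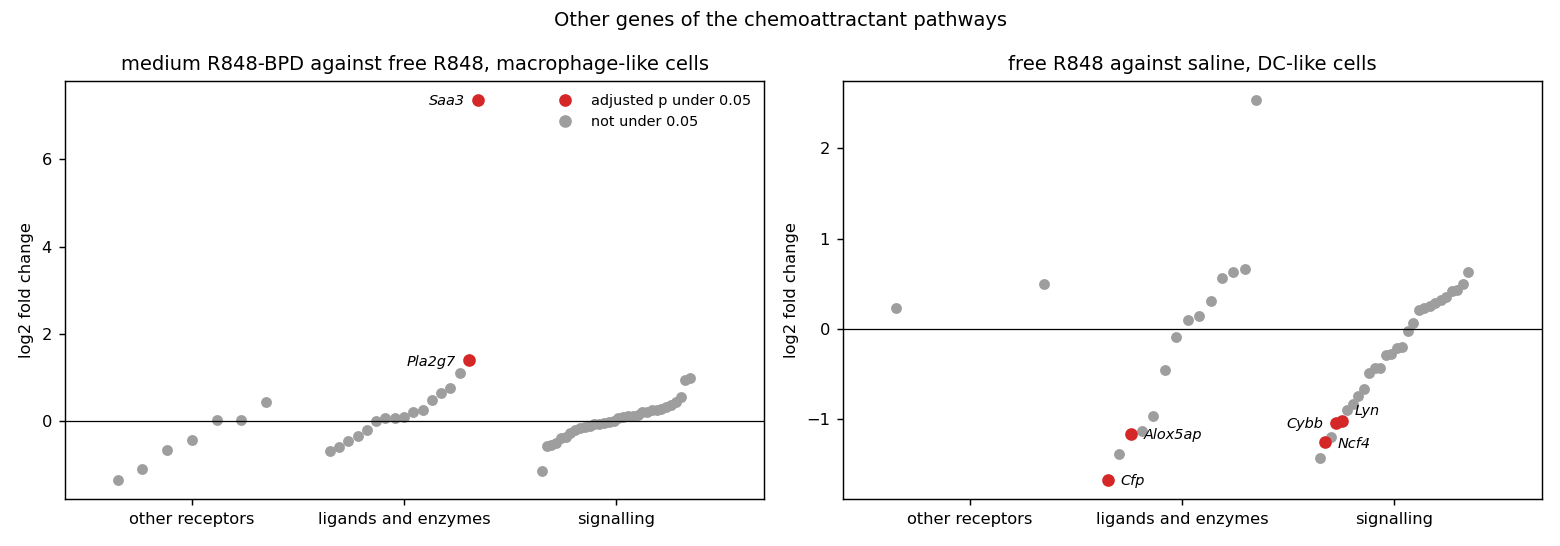
Fitted log2 fold changes of the genes of the 3 lists that passed the filter on low counts, each point a gene, sorted within its list, with genes at an adjusted p under 0.05 in red and named. The left panel is medium R848-BPD against free R848 in macrophage-like cells, with *Saa3* and *Pla2g7* in red above 0 and *Saa1*, at 0 UMIs in the free R848 tumors, left out; the right panel is free R848 against saline in DC-like cells, with 5 named genes below 0.

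As a description of likeness, log2 CPM was correlated over the 55 sums of tumor and class with at least 10 cells, which share tumors and libraries. The genes most like *Fpr1* were *Grina*, *Irg1*, *Fbxl5*, *Bst1* and *Clec4d* (Pearson r of 0.920 to 0.851), and those most like *Fpr2* were *Plin2*, *Bst1*, *Cd300lf*, *Clec4d* and *Fcgr1* (0.869 to 0.836). *Bst1* and *Clec4d* were on both lists. *Ptafr* was most like *Slfn4*, *Cd300a*, *Themis2*, *Slc15a3* and *Osm* (0.931 to 0.924). *C5ar1* was most like *Cd300ld*, *Cd14*, *Socs3*, *Slc11a1* and *Tlr2* (0.9503 to 0.910), and *C3ar1* most like *Fcgr1*, *Ms4a6d*, *Tgfbi*, *Lgmn* and *Ctsb* (0.953 to 0.944). Over the 8 macrophage-like sums alone the nearest genes were *Stard5* for *Fpr1* (0.992), *March1* for *Fpr2* (0.982), *Pcbd2* for *Ptafr* (0.926), *Dhrs3* for *C5ar1* (0.960) and *5730508B09Rik* for *C3ar1* (0.988), and for *Fpr1* these 8 values fall into the 2 medium R848-BPD tumors and the rest.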

How the data were processed

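Single-cell suspensions of 8 MC38 tumors, 1 library per mouse, were processed on Seq-Well arrays by the authors, who deposited for each tumor a table of UMI counts per gene and cell barcode, with reads assigned to mm10. The submitters' processing notes name bcl2fastq and mm10, and the aligner and gene annotation are not given in the sources used here. Groups came from the treatment on each label, with separate tumors as replicates.

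Barcodes were filtered on genes (above 400 and below 10000), total UMIs (below 50000) and the mitochondrial share (15% or less), and barcodes found in more than 1 library were dropped. Scrublet (expected rate 0.05) marked 100 cells (1.01%), which were kept in the main analysis. Each marker was scaled to its 99.5th percentile, each cell went to the class with the highest mean score if that was at least 0.2, and 221 cells stayed unassigned. This scoring rule was chosen after the files were seen, and 1744 cells lay within 0.1 of the next class. The members and the gene and marker lists were chosen with earlier results of these data known.

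Counts were summed per tumor and class (at least 10 cells) and tested with edgeR 4.0.16 in R 4.3.3 (TMM, filterByExpr, quasi-likelihood F test, Benjamini-Hochberg adjustment over all genes tested, threshold 0.05), all 3 treatments sharing the spread. The standard error is the log2 fold change divided by the square root of F. A floor of 3 UMIs was used for genes at 0. Alternatives were DESeq2 1.42.0, RLE factors, no filter on low counts, a replicate block, 2 groups only, doublets removed, clusters from Seurat 5.3.0 drawn without the receptors and the pathway genes, and each tumor left out. Removal of cells near the gate's cut, shared barcodes kept, mature DC-like cells alone and, for the class comparisons, clusters and the saline and free R848 tumors alone were added after seeing the data. The text names the 5 receptors, list genes that passed, up to 4 per list and comparison that did not, and for likeness the 5 genes with the highest correlation among those whose log2 CPM averaged 4 or more. Fits were tested on simulated counts with known changes. Intervals on shares are exact binomial intervals at a level of 0.95, and with limits from a count of 0 they cover counting error only.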

Additional observations from a re-analysis of the deposited data

How the results depend on the processing

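Among alternative values of the receptors' tested comparisons, 285 kept their direction and their side of the threshold, 12 passed it only under the alternative, 1 no longer passed and 10 changed sign. Among values given as a description, 118 moved by less than their own spread and 8 by more. With classes from clusters *Fpr1* was higher in macrophage-like than in monocyte-like cells (0.74), and in DC-like cells the differences of *Ptafr* and *C3ar1* between free R848 and saline became 0.37 and 0.14. With 1 tumor left out, differences that did not pass anyway changed sign, with *Ptafr* between -0.0619 and 0.370 and *C5ar1* between -0.0627 and 0.281 in macrophage-like cells of free R848 against saline (both negative without saline replicate 2), *Ptafr* between -0.402 and 0.0563 in DC-like cells (0.0163, 0.042 and 0.0563 without free R848 replicate 2, free R848 replicate 3 or saline replicate 2) and between -0.01 and 0.24 in macrophage-like against DC-like cells (-0.0076 without medium R848-BPD replicate 2). In saline and free R848 tumors alone this last difference was -0.15. The cause was not tested.

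Counts of all genes called depended more on the settings. For free R848 against saline in macrophage-like cells, 1 call became 593 with no filter on low counts, 114 with DESeq2, 0 with only these 2 groups, 2 without cells near the gate's cut, 2 with macrophage-like and monocyte-like cells joined, and 0 to 87 with 1 tumor left out, the highest without saline replicate 2. In DC-like cells, 252 calls became 446 with no filter, 160 with DESeq2, 76 with clusters, 78 without cells near the cut, 36 in mature cells alone, and 1 (without saline replicate 1) to 441 (without saline replicate 2). For medium R848-BPDs against free R848, 140 calls in macrophage-like cells became 854 with no filter, 335 with DESeq2, 333 with only these 2 groups and 15 (without free R848 replicate 3) to 359 (without saline replicate 2), and 21 calls in DC-like cells became 172 with no filter, 12 without doublets, 58 with clusters and 5 (without medium R848-BPD replicate 2) to 43 (without saline replicate 2). Clusters gave 2495 in place of 4097 calls between macrophage-like and monocyte-like cells and 1850 in place of 1057 against neutrophil-like cells, where the saline and free R848 tumors alone gave 692 and leaving out 1 tumor gave 667 (without medium R848-BPD replicate 1) to 1088.

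Replicate numbers did not pair the tumors, since deviations of same-numbered tumors correlated at -0.289 to 0.160. With the number as a replicate block the calls for free R848 against saline became 2 in macrophage-like and 64 in DC-like cells, and those for medium R848-BPDs against free R848 became 47 and 5.

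The differences in the share of macrophage-like cells between medium R848-BPDs and free R848 grew with the depth kept. At 500, 1000 and 2000 UMIs per cell and with no thinning they were 6.44, 9.81, 17.9 and 34.8 percentage points for *Fpr1* and 3.06, 9.87, 14.0 and 28.6 for *Fpr2*. For *C3ar1* they were 0.259, 4.02, -1.94 and 1.60, so no direction is read from them, and for *C5ar1* the difference was 0.059 at 500 UMIs and -5.02 at 1000. With no thinning the *C5ar1* shares were 54.7% after medium R848-BPDs and 61.7% after free R848. With 2 medium R848-BPD tumors and 19 to 137 DC-like cells per tumor, *Fpr1*, *Fpr2* and *C5ar1* in DC-like cells were too few to test between treatments.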
